A study of Mus musculus with 4 samples.

Results

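The genes described here encode the machinery that ends RNA polymerase II transcripts: the cleavage and polyadenylation complexes, poly(A) polymerases and poly(A) binding proteins, the Integrator complex and factors that terminate transcription or bind the C-terminal domain of the polymerase. They were chosen by gene symbol, and all 39 listed genes were found in the deposited transcript table, where they had 87 of the 34200 tested transcripts and 39 of the 21945 tested genes. NIH/3T3 cells, an immortalised line of mouse fibroblasts, were given either a pair of siRNAs against *Setd2* (KD, 2 libraries) or a non-targeting Scrambled siRNA (WT, 2 libraries) at 10 nM, and RNA was taken 48 h later and sequenced after selection of polyadenylated RNA. *Setd2* encodes the methyltransferase that places H3K36me3, and the study asked whether the loss of this mark alters where transcripts are spliced and polyadenylated. The design text speaks of 3 independent transfections, and the labels give replicate numbers but do not say which transfection a library came from, so the spread between libraries may be technical. Knockdown by siRNA was transient, and all the cells belong to 1 immortalised line.

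Most mRNAs are completed in a single coupled reaction. CPSF recognises the hexamer AAUAAA or a close variant and cuts the RNA, CstF binds the GU-rich sequence downstream of the cut, CFIm binds UGUA sequences upstream and takes part in the choice between alternative sites, CFIIm joins for cleavage, and a poly(A) polymerase then adds the tail that the poly(A) binding proteins cover. The exonuclease XRN2 degrades the RNA that the polymerase still makes past the cut. Integrator carries its own endonuclease and ends short transcripts such as those of small nuclear RNA genes, and it also stops polymerases close to promoters. A gene with several polyadenylation sites can give mRNAs that differ in their 3′UTR, and a site within an intron gives a shortened mRNA with another last exon. Several of the factors themselves are known to have such sites, among them *Pcf11*.

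The level of a transcript below is the geometric mean of its normalised estimated counts over the 4 libraries, obtained from the deposited natural log means. The deposited tables that were used give values pooled over the libraries, so no library is described on its own and its depth is unknown. The deposited variance over the 4 libraries does fix 3 quantities exactly. It sets the range in which every single library must lie (the library range), the narrower range in which the mean of KD and the mean of WT must both lie (the group range), and the largest log2 difference between KD and WT that can exist (the limit). The limit is reached only if libraries of the same group are identical, it has no sign, and it is not an estimate of the change. No test of KD against WT was possible from these columns, and no p-value is given. The ranges hold for the estimated counts. They make no separate allowance for the uncertainty of assigning reads to isoforms, which was deposited as a separate variance.

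The 4 libraries had the marker genes of fibroblasts, since all 7 that were listed were present at 3083 to 323250 counts, while *Cdh1*, *Krt8*, *Ptprc*, *Cd68*, *Pecam1* and *Cdh5*, markers of other cell types, had 22.5 to 343 counts and *Epcam* and *Krt18* were not in the table. The only tested *Setd2* transcript, ENSMUST00000153838.7 (GRCm38, chromosome 9, 110532597 to 110618633), had a level of 1844 counts and a limit of 2.00 (log2), and the means of both groups lay between 923 and 3682 counts. The spread of *Setd2* over the libraries was thus wide, with an SD of 1.15 (log2) against 0.03 for read assignment, but these columns do not say in which group it was lower. In bulk RNA, fewer cells of a type and less RNA per cell cannot be told apart.

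Many of these genes have isoforms that stop at different places, so the ends of their transcripts are shown first. In the GENCODE M21 annotation of GRCm38, AATAAA or ATTAAA was looked for on the strand of the transcript in its last 50 bases, and AATAAA was preferred where both were present. It was found in 61 of the 87 transcripts (70.1%), with AATAAA in 49 and ATTAAA alone in 12. The share over the 33720 tested transcripts that could be matched was 60.9%. A match describes the letters at an annotated end and is not evidence that the site was used. The lines below give 30 bases around the hexamer at the last annotated end and at an upstream end of 7 genes, since these pairs of ends separate the isoforms whose levels are compared further down. Each lies in the last exon of a transcript annotated as protein-coding; the upstream last exon of *Nudt21* and that shown for *Fip1l1* begin at the same base as the last exon of the longer isoform, and the others begin elsewhere. They are written 5′ to 3′ in the sense of the transcript with the hexamer in capitals.
*Pcf11* ENSMUST00000119954.8, last end, chr7:92643543-92643572, minus strand: ATTAAAacttgtgattttttttccgtggga
*Pcf11* ENSMUST00000208255.1, upstream end, chr7:92668184-92668213, minus strand: aaaatttgtgAATAAAacatataaaatatg
*Nudt21* ENSMUST00000034204.10, last end, chr8:94015496-94015525, minus strand: gttatttcAATAAAaatatttaaaactgaa
*Nudt21* ENSMUST00000212981.1, upstream end, chr8:94019448-94019477, minus strand: ttgtacATTAAAgaaagtgaatttcttatt
*Cpsf6* ENSMUST00000069168.12, last end, chr10:117344673-117344702, minus strand: tcttgtattgaaAATAAAaacaaagttttg
*Cpsf6* ENSMUST00000176686.7, upstream end, chr10:117349039-117349068, minus strand: tagtgttgtAATAAActgtttatggggctg
*Cpsf6* ENSMUST00000177145.7, upstream end, chr10:117353805-117353834, minus strand: tggAATAAAtggactaagaagtacttcacc
*Cstf2* ENSMUST00000033609.8, last end, chrX:134086790-134086819, plus strand: ctgtcgtggattcAATAAAtattttaaaag
*Cstf2* ENSMUST00000113286.7, upstream end, chrX:134075834-134075863, plus strand: atatagAATAAAaatgtattttctgttgta
*Fip1l1* ENSMUST00000113536.7, last end, chr5:74598764-74598793, plus strand: AATAAAaatgatcttgtgaaatattaagca
*Fip1l1* ENSMUST00000113535.8, upstream end, chr5:74596116-74596145, plus strand: aaAATAAAagtgtgcatttttttgtgttaa
*Rprd2* ENSMUST00000090791.7, last end, chr3:95760341-95760370, minus strand: catttAATAAAataactagttctaaaggtt
*Rprd2* ENSMUST00000197449.1, upstream end, chr3:95772255-95772284, minus strand: cagaattactATTAAAcaatctttcattga
*Ints6* ENSMUST00000053959.6, last end, chr14:62676330-62676359, minus strand: tgcttatgaAATAAAtggctttattttcct
*Ints6* ENSMUST00000223585.1, upstream end, chr14:62685804-62685833, minus strand: gcacacacAATAAAtatgtttttaaaccaa

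In *Nudt21* and *Rprd2* the last end carried AATAAA and the upstream end ATTAAA. *Pcf11* had the opposite arrangement, with ATTAAA at its last end and AATAAA at the upstream end. In the pairs shown for *Cpsf6*, *Cstf2*, *Fip1l1* and *Ints6*, both ends carried AATAAA.

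Nearly all of the machinery was well expressed. The median level per gene was 3695 counts, compared with 220.6 counts over all tested genes. Counts depend on transcript length, so genes are ordered within their roles per kb of transcript. On this scale the median was 951 counts per kb against 127 counts per kb for all genes. All 39 genes were above the 50th percentile of the tested genes on this scale, from *Ints6* at the 60.2nd to *Pabpc1* at the 99.3rd percentile. The lowest gene in counts was *Ints9*, with 874, and the highest was *Pabpc1*, with 112834.

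**Figure D1:**
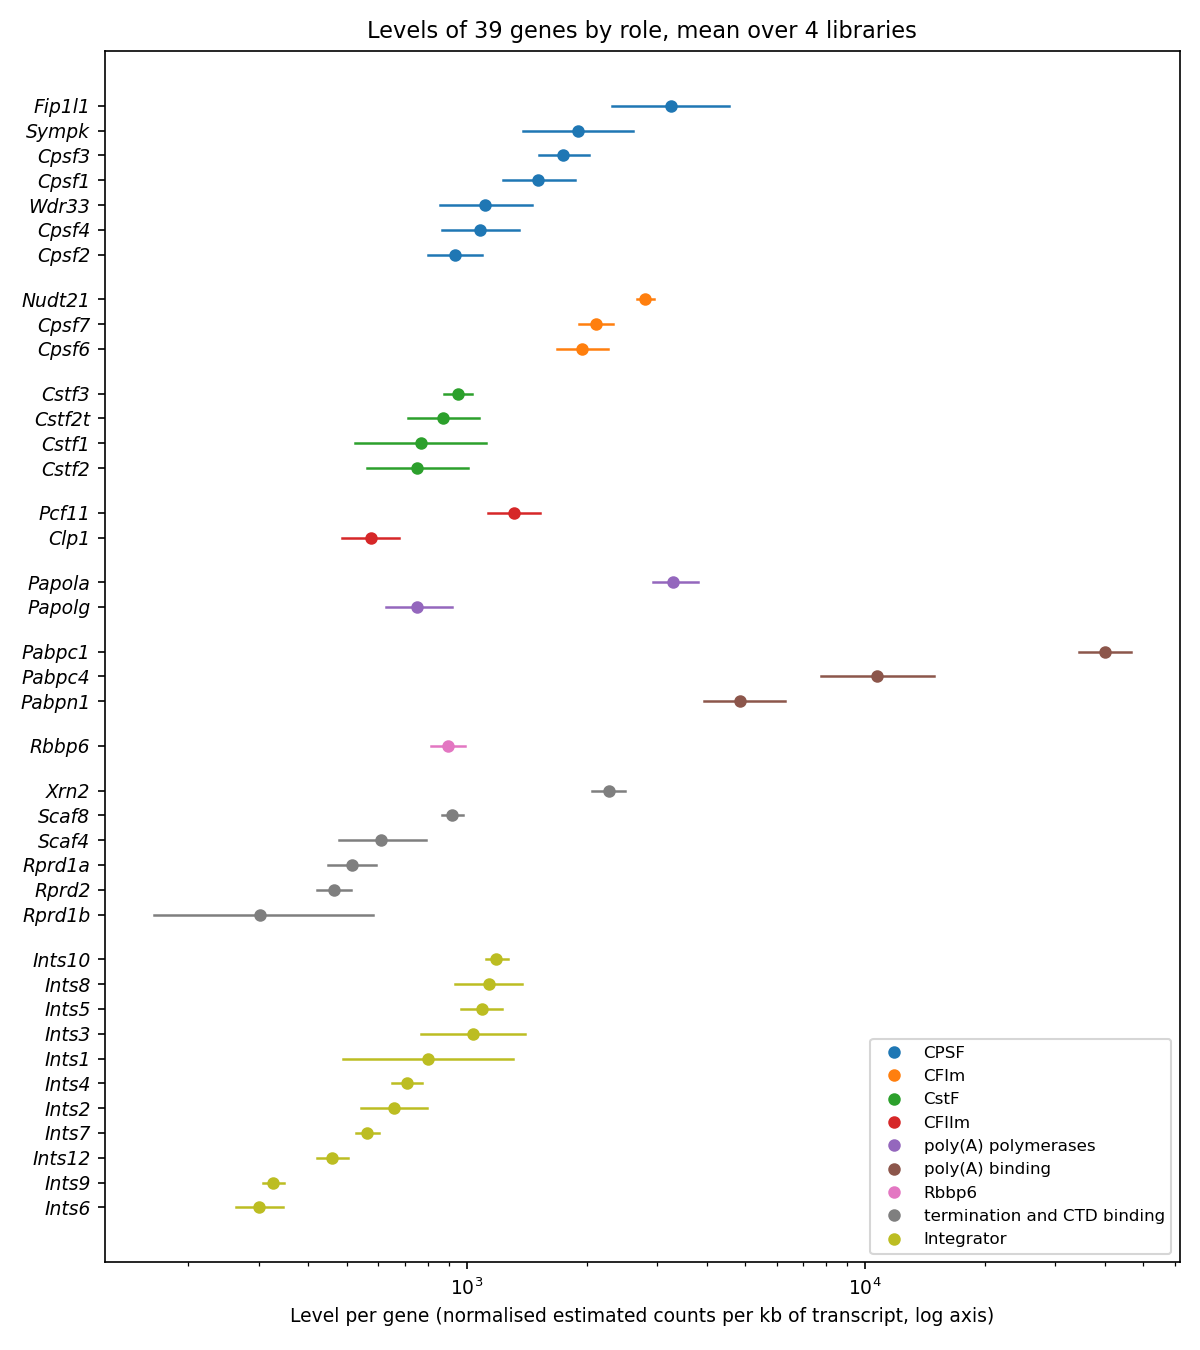
Level of each of the 39 genes in normalised estimated counts per kb of transcript (log axis), ordered within its role; points are means over the 4 libraries and lines the range in which every single library must lie. CFIm and CFIIm are the cleavage factors, CTD is the C-terminal domain of RNA polymerase II. *Pabpc1*, at 40055 counts per kb, stands far to the right of the other genes, and *Rprd1b* and *Ints1* have the longest lines.

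CPSF is the complex that reads the hexamer and cuts. Its 7 genes lay within 3.48-fold of each other, between 934 counts per kb for *Cpsf2*, which encodes a catalytically inactive partner of the endonuclease, and 3248 counts per kb for *Fip1l1*, whose product binds U-rich RNA and poly(A) polymerase. *Cpsf3*, the endonuclease itself, had 1746 counts per kb, with a library range of 1516 to 2023. *Sympk*, the scaffold shared with the histone mRNA machinery, had 1905 counts per kb and *Cpsf1*, the largest subunit, had 1511. The hexamer is bound by WDR33 and CPSF4, and their genes had almost the same level, 1110 counts per kb for *Wdr33* and 1082 for *Cpsf4*. None of the 6 steps between neighbours in this order was larger than the ranges of the libraries allow for, so the order within CPSF is not firm for neighbours. The limit of the KD difference was under 1 for all 7 genes and under 0.5 for 5 of them. *Cpsf3* had the narrowest limit, 0.23, and its group range was 3831 to 4481 counts. The exceptions above 0.5 were *Fip1l1*, with a limit of 0.57 and a group range of 6648 to 9899 counts, and *Sympk*, with a limit of 0.53 and a group range of 6523 to 9429 counts.

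CFIm is built from the UGUA-binding subunit encoded by *Nudt21* and from the larger subunits encoded by *Cpsf6* and *Cpsf7*. *Nudt21* had 2809 counts per kb, with a library range of 2678 to 2945, and was above *Cpsf7* in every library. *Cpsf7* had 2114 counts per kb and *Cpsf6* had 1947. The ratio of these paralogs was 1.09, and single libraries may lie anywhere from 0.85 to 1.38, so they were not separated. *Nudt21* had the narrowest limit of all 39 genes, 0.09, which places the means of KD and WT between 5554 and 5923 counts. Of the 31-base words of its shorter isoform 54.3%, and of its longer isoform 15.3%, also occur in transcripts of other genes on either strand. Its level may therefore be uncertain. For the shorter isoform the SD of read assignment, 0.039 (log2), was about as large as that over the libraries, 0.040. For the longer isoform it was 0.027 against 0.065. The limits of *Cpsf7* and *Cpsf6* were 0.17 and 0.31.

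CstF holds the RNA downstream of the cut through CSTF2 or its paralog CSTF2T, which comes from an intronless copy of the gene. Its 4 genes had closely similar levels, from 749 counts per kb for *Cstf2* to 951 for *Cstf3*, which encodes the dimer at the centre of the complex. *Cstf2t* had 873 counts per kb, which was 1.17 times the level of *Cstf2*, with a range over single libraries of 0.71 to 1.91 that does not fix which was higher. *Cstf3* was held in a group range of 2560 to 2805 counts, a limit of 0.13. *Cstf1* was not, and its group range of 2122 to 3291 counts gave a limit of 0.63, the widest in the core cleavage complexes. Its SD over the libraries was 0.37 (log2) and that of read assignment 0.03, so read assignment varied far less than the libraries did. *Cstf2* had a limit of 0.52 and *Cstf2t* of 0.34.

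CFIIm consists of PCF11, which also binds the C-terminal domain of the polymerase and takes part in termination, and the kinase CLP1. *Pcf11* had 1313 counts per kb and was 2.29 times *Clp1*, at 574 counts per kb, with a range over single libraries of 1.68 to 3.13. The limit was 0.20 for *Pcf11*, with a group range of 4787 to 5511 counts, and 0.28 for *Clp1*, with a group range of 1015 to 1229 counts. *Rbbp6*, which encodes a large activator of cleavage with a ubiquitin ligase domain, had 895 counts per kb and a limit of 0.16.

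The tail is made by the canonical polymerases encoded by *Papola* and *Papolg*. *Papola* had 3290 counts per kb and *Papolg* 750, a ratio of 4.38 that lay between 3.20 and 6.10 in every library. Both were held closely, with limits of 0.20 and 0.29. The nuclear poly(A) binding protein gene *Pabpn1* had 4864 counts per kb, and the cytoplasmic *Pabpc4* and *Pabpc1* had 10696 and 40055 counts per kb. *Pabpc1* was 3.74 times *Pabpc4* on this scale, between 2.32 and 5.99 in every library. These 3 genes share much of their sequence with other transcripts, so their levels may be uncertain. Of the words, 33.4% in *Pabpc1*, 80.6% to 85.4% in the *Pabpc4* isoforms and 30.4% to 92.4% in the *Pabpn1* isoforms occurred in other genes. The SD of read assignment was nevertheless 0.005 (log2) for *Pabpc1* and 0.03 for the leading isoforms of *Pabpn1* and *Pabpc4*. It reached 1.72 for a minor *Pabpn1* isoform. The limit was 0.25 for *Pabpc1*, with group means between 103515 and 122991 counts. It was 0.36 for *Pabpn1* and 0.54 for *Pabpc4*.

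Among the factors that act on the polymerase, *Xrn2* was highest with 2274 counts per kb, 2.47 times the next gene, with a range over single libraries of 2.11 to 2.89. *Scaf8* and *Scaf4*, which encode related readers of the C-terminal domain that prevent early polyadenylation, had 920 and 609 counts per kb. *Scaf8* was higher in every library, by 1.51-fold with a range of 1.09 to 2.05, although 20.0% of its words occur in other genes. The scaffolds of the C-terminal domain phosphatases were lower, with 516 counts per kb for *Rprd1a*, 464 for *Rprd2* and 302 for *Rprd1b*. *Rprd1a* was 1.71 times *Rprd1b*, but the range from 0.77 to 3.62 does not fix their order. The limits were 0.10 for *Scaf8*, 0.14 for *Rprd2*, 0.16 for *Xrn2*, 0.23 for *Rprd1a* and 0.42 for *Scaf4*. *Rprd1b* had a limit of 1.05, the widest of the 39 genes and the only one of 1 or more, with group means between 939 and 1939 counts. Its 3 tested transcripts share 1 end and each had a limit of at least 0.79. They had 5.1%, 0% and 2.9% of words of their own, and SDs of read assignment of 0.10, 0.41 and 0.43 (log2). The limit of a gene with several isoforms sums the ends of their ranges, so reads moved between isoforms can widen it. It is thus not like the limit of a gene with 1 tested transcript.

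The 11 Integrator genes ranged from 301 counts per kb for *Ints6* to 1187 for *Ints10*, a 3.95-fold range with a median of 708. *Ints10*, *Ints8*, *Ints5* and *Ints3* had the highest levels, from 1036 to 1187 counts per kb, and their order among themselves is not firm. For *Ints5*, 33.8% of the words occur in other genes. *Ints9*, the inactive partner of the Integrator endonuclease, had 327 counts per kb, and *Ints4*, which holds both of them, had 708. *Ints12*, at 460 counts per kb, was below *Ints7*, at 563, and above *Ints9* in every library. Of the 11 genes, 10 had a limit under 0.5. *Ints9* was held between 844 and 906 counts, a limit of 0.10, and *Ints7* between 2900 and 3125 counts, a limit of 0.11. For *Ints9* the SD of read assignment, 0.051 (log2), was close to that over the libraries, 0.058. *Ints1*, the largest subunit, differed, with a limit of 0.82 and a group range of 4273 to 7532 counts. Both of its tested transcripts were spread in this way, with limits of 0.83 and 0.77, and the SD of its leading transcript over the libraries was 0.48 (log2) against 0.04 for read assignment. *Ints3* was next, with a limit of 0.496.

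Counted over the machinery, the limit was under 1 for 38 of the 39 genes (97.4%), compared with 80.7% of all tested genes, and under 0.5 for 32 (82.1%), compared with 49.6% of all genes. For the summed isoform levels, a KD difference as large as 2-fold was thus outside the limit of every gene but *Rprd1b*. These limits make no allowance for the uncertainty of read assignment. For *Rprd1b*, whose limit sums the ranges of its isoforms, such a difference is not excluded and was not tested. The median limit was 0.27 against 0.50 for all genes. Among transcripts, 81 of 87 (93.1%) had a limit under 1, against a background of 77.2%, and 59 of 87 (67.8%) had a limit under 0.5, against 46.4%. Transcripts with higher levels have narrower limits in these data. For those with at least 1000 counts, all 48 transcripts of these genes had a limit under 1 where the background was 97%, and 38 of 48 (79.2%) had a limit under 0.5 where the background was 77.6%. At such levels the shares were close to the background, and no result particular to the machinery is read from them.

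**Figure D2:**
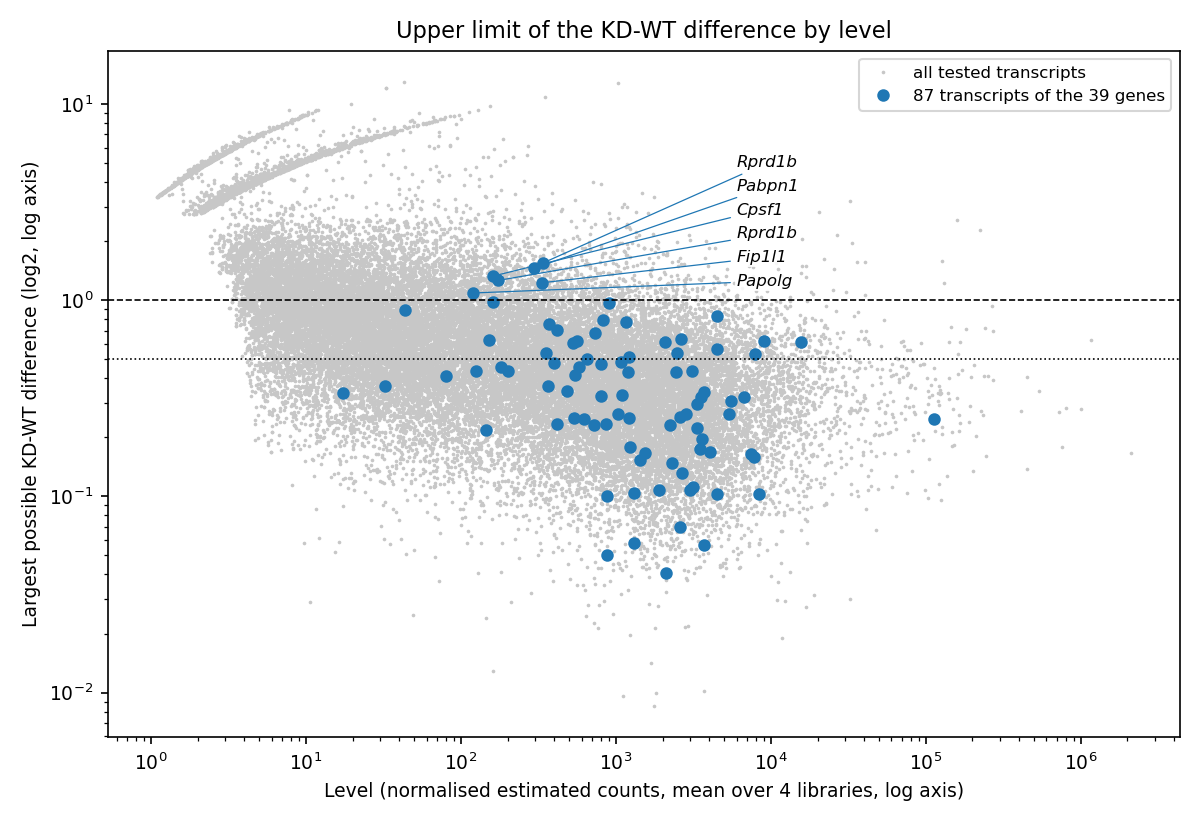
Limit of the difference between KD and WT (log2, log axis) against the level (normalised estimated counts, log axis) of each tested transcript; grey points are all 34200 tested transcripts and blue points the 87 of the 39 genes, with lines at limits of 1 (dashed) and 0.5 (dotted). The 6 blue points above the dashed line are named and had levels of 120 to 338 counts, and the blue points lie within the grey cloud.

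The 6 transcripts with a limit of 1 or more were minor isoforms of *Cpsf1* (1.33), *Fip1l1* (1.23), *Papolg* (1.09) and *Pabpn1* (1.46) and the lesser isoforms of *Rprd1b* (1.55 and 1.26). Except for those of *Rprd1b*, they held from 2.3% to 5.6% of the counts of their gene. For the *Pabpn1* isoform, the SD of read assignment, 1.72 (log2), was larger than that over the libraries, 0.84. The leading transcripts of the 39 genes had a median limit of 0.25.

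Isoform levels were examined in the 24 genes that had several tested transcripts, 72 in all, while the other 15 genes had 1 each. In 19 of the 24 genes the library ranges place the leading transcript above all others in every library. For the rest the ranges overlap and do not fix this. The leading transcript held at least 90% of the counts in only 4 genes, *Cpsf1*, *Clp1*, *Papolg* and *Ints8*. It held less than 50% in *Cpsf4*, *Cpsf6*, *Pabpc4* and *Scaf4*. The uncertainty of read assignment differed between these classes, with a median SD of 0.03 (log2) for genes with 1 tested transcript and 0.10 for transcripts of genes with several. It exceeded the variance over the libraries in 11 of the 87 transcripts (12.6%), compared with 27.7% of all tested transcripts, and for those the library and group ranges are too narrow to be taken at face value.

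**Figure D3:**
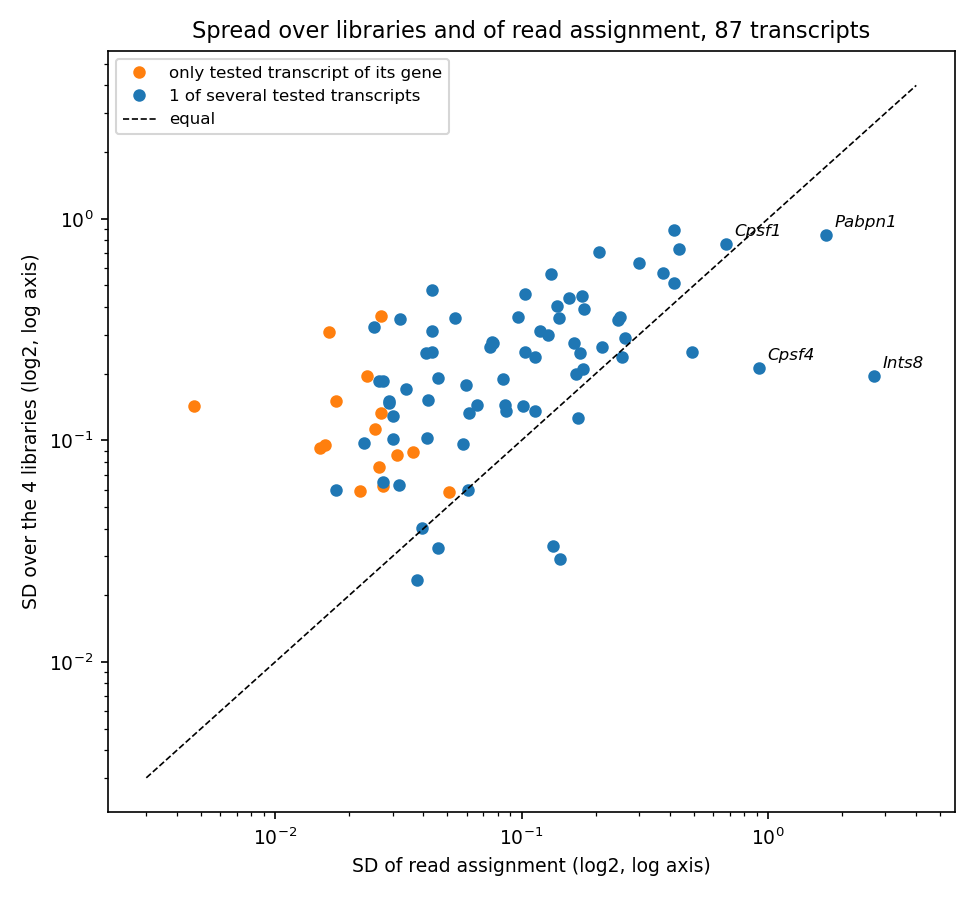
SD over the 4 libraries against the SD of read assignment (both log2, log axes) for the 87 transcripts, coloured by whether the gene had 1 or several tested transcripts; on the dashed line both are equal. The 11 points below the line include the weak isoforms of *Ints8*, *Pabpn1* and *Cpsf4* at the far right.

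An isoform was counted as ending upstream when its annotated end lay more than 100 bases before the last tested end of the gene. This was found in 20 of the 39 genes (51.3%), against 21.2% of all tested genes, and in 30 of the 87 transcripts (34.5%), against 22% of all tested transcripts. Genes with higher levels more often had such isoforms, and among genes with at least 1000 counts the shares were 20 of 38 (52.6%) and, over all genes, 37.8%. Among those with several tested transcripts as well they were 20 of 24 (83.3%) and 66.7%. These shares were not tested. In 8 of the 30 the last exon began at the same base as that of the isoform with the last end, as for alternative 3′UTR ends, and in 22 it began at another base. AATAAA or ATTAAA was present in 18 of them. The upstream isoforms held at least 10% of the counts in 17 of the 39 genes (43.6%), against 15.4% of all tested genes, or 26% of those with at least 1000 counts. With several tested transcripts required as well, this was 17 of 24 (70.8%) against 45.9%. Ranges of shares are too narrow where the variance of read assignment exceeded that over the libraries, which was the case for an isoform of *Cpsf4*, *Cpsf6*, *Clp1*, *Papola*, *Pabpc4*, *Rbbp6* and *Ints10* and for several isoforms of *Pabpn1* and *Ints8*.

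**Figure D4:**
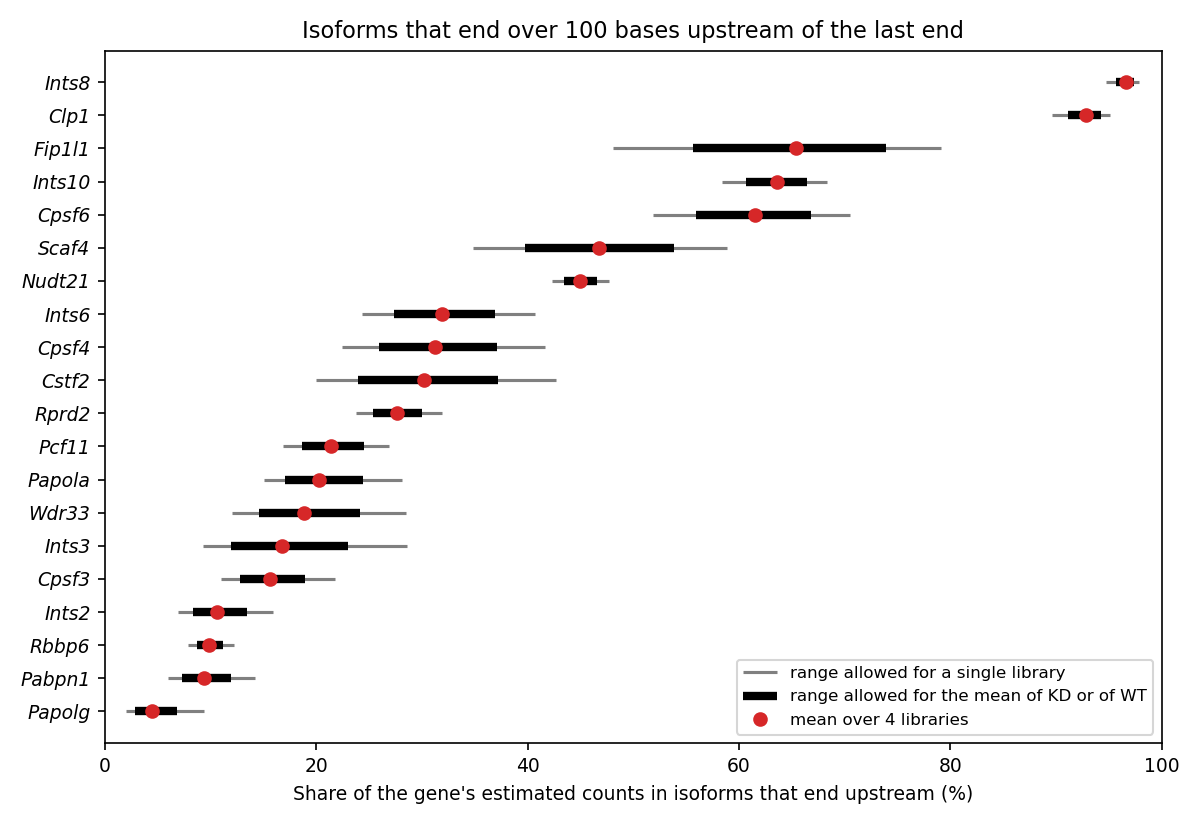
Share (%) of the estimated counts of a gene in isoforms that end more than 100 bases upstream of its last tested end, for the 20 genes that have them; red points are means over the 4 libraries, black bars the range in which the means of KD and WT must lie and grey lines the range for any single library. The shares run from 4.4% in *Papolg* to 96.6% in *Ints8*, and the bars of *Nudt21*, *Ints8*, *Clp1* and *Rbbp6* are among the shortest.

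For *Pcf11*, the isoform that ends at the upstream AATAAA shown above, 24641 bases before the last end, held 1100 of 5135 counts, or 21.4%. Any single library must lie between 16.8% and 26.9%, and the means of both groups between 18.7% and 24.5%. Since this isoform is only 1720 bases long against 5995 for the full transcript, its share was 48.7% when counts were taken per kb. It is annotated with 1 exon. Whether its counts came from RNA that ends there or from unspliced RNA of the gene was not tested. The limits were 0.33 for the upstream isoform and 0.17 for the full one. *Rbbp6* also has an isoform with an upstream end and another last exon. It held 9.9% of the counts, with a library range of 7.9% to 12.2%.

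In *Nudt21*, both ends lie in the same last exon, 3952 bases apart. The shorter isoform held 45.0% of the counts, with a library range of 42.3% to 47.7%, and 77.6% per kb. The group means must lie between 43.4% and 46.5%, so KD and WT cannot differ by more than about this width, apart from the uncertainty of read assignment and of the words shared with other genes. The limits of the short and long isoforms were 0.07 and 0.11.

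*Cpsf6* had 3 isoforms with upstream ends and 1 with the last end. Together the upstream isoforms held 61.5% of the counts, with a library range of 51.9% to 70.5%, and 80.7% per kb. Those that end at the AATAAA 4366 or 4369 bases upstream had limits of 0.17 and 0.10, the latter with an SD of read assignment (0.061, log2) as large as that over the libraries (0.060), while the isoform with the last end and the one that ends 9132 bases upstream had limits of 0.43 and 0.48. The differences between these limits were not tested. *Fip1l1* and *Cstf2* had wider ranges. In *Fip1l1*, 65.4% of the counts were assigned to isoforms that end upstream, with a library range of 48.1% to 79.1%, and 81.9% per kb. The larger of these, ENSMUST00000113535.8, was assigned 55.6% of the counts but had 0% of words of its own among the tested isoforms. In *Cstf2* the share of upstream isoforms was 30.2%, with a range of 20.0% to 42.7%, and 38.1% per kb. In *Cstf2* the isoform with the last end had a limit of 0.62 and the isoforms with upstream ends 0.35 and 0.23.

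In *Rprd2* and *Ints6* the isoforms differ greatly in length. In *Rprd2* the upstream isoform, whose end lies 11914 bases before the last end, held 27.6% of the counts (library range 23.8% to 31.9%) and 47.3% per kb. In *Ints6* the upstream isoform is the longer RNA, with 10883 against 4993 bases, and its share was 31.9% of the counts and 17.7% per kb. *Ints10* had a leading isoform that ends 6899 bases upstream with no hexamer in its last 50 bases. This isoform held 63.6% of the counts (library range 58.4% to 68.3%) and 76.0% per kb. However, its SD of read assignment, 0.038 (log2), exceeded that over the libraries, 0.024. In *Ints8* and *Clp1*, the last annotated end belonged to a minor isoform. Isoforms that end upstream of it were assigned 96.6% and 92.9% of the counts. The leading isoform of *Ints8*, with 96.1% of the counts, had 0% of words of its own among the tested isoforms.

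In the remaining genes with upstream ends, the shares were 46.8% in *Scaf4*, where the ends are only 104 bases apart, 31.3% in *Cpsf4*, 20.3% in *Papola* and 18.9% in *Wdr33*. *Ints3* had 16.8%, *Cpsf3* 15.6%, *Ints2* 10.6%, *Pabpn1* 9.4% and *Papolg* 4.4%. Per kb, the shares of *Papola*, *Wdr33* and *Papolg* were larger by more than 1.5 times, at 41.4%, 43.9% and 7.4%. In *Papola*, the isoform that ends 29098 bases upstream had a limit of 0.05, but its SD of read assignment, 0.14 (log2), was above that over the libraries, 0.03.

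A list of 20 further genes of these pathways was examined in the same way. Of these, 17 were tested, with 36 transcripts, and *Cpsf4l*, *Pabpc2* and *Pabpc6* were not in the table. Their median level was 1146 counts per kb, and the limit was under 1 for 15 of the 17 (88.2%, against 80.7% of all genes) and under 0.5 for 14 (82.4%, against 49.6%), with a median of 0.38. The median level of all genes was 127 counts per kb, and higher levels go with narrower limits. No result particular to this list is read from these shares. *Ints11*, the Integrator endonuclease and partner of *Ints9*, had 1369 counts per kb and a limit of 0.43. *Ssu72*, a phosphatase of the C-terminal domain, had a limit of 0.12. The exceptions were *Ppp1cb*, a catalytic subunit of protein phosphatase 1, with 7258 counts and a limit of 1.49, and *Papolb*, the testis poly(A) polymerase, with 20.9 counts and a limit of 1.61.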

How the data were processed

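RNA-seq of polyadenylated RNA from 2 KD and 2 WT libraries was analysed, grouped by the knockdown label. The authors removed adapters with BBDuk, estimated counts per transcript with Kallisto and compared the groups in Sleuth; the submitters' notes name bcl2fastq 2.17 and GRCm38, and the index transcriptome is not given in the sources used here. From the transcript table, 3 deposited columns were used: the authors' mean over the 4 libraries on the natural log scale, of normalised estimated counts plus 0.5, and 2 variances of the same natural log values, over the libraries and from resampled read assignment. The natural base was taken from the sum of all levels, which was 6.52e+07 counts and would be 3.93e+06 in base 2. The authors' comparison columns (effects with their standard errors, test statistics, p-values and q-values) and their gene table, which holds combined p-values and q-values, were not used. The table had 0 columns of single libraries, so depth is unknown and limma's test, planned for such values, could not be applied.

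Levels were the exponential of the mean minus 0.5, summed per gene over all tested transcripts, and per kb of GENCODE M21 length (same version for 84 of 87 transcripts; 3, of *Cpsf7*, *Cstf2t* and *Ints5*, by identifier with another version). For 2 against 2 libraries, 3 times the variance equals the squared difference of the group means plus the spread within groups, so its square root limits that difference; single libraries lie within 1.5 SD of the mean. That the variance divides by 3, not 4, was read from transcripts with 2 libraries at 0 counts, whose SD over the distance of the mean from the log of 0.5 cannot then be under 1.1547: 404 transcripts lay within 0.01 above this value and 11 within 0.01 below it. The code for limits and library ranges of single transcripts was run on simulated libraries. Since the limit follows from the equation above, this checks the code and not the data. Gene limits and ranges of shares were not simulated. Gene limits sum the ends of the ranges of the isoforms and are conservative. Python 3.11.15, pandas 2.3.3, numpy 2.4.6 and matplotlib 3.10.9 were used.

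The members and lists were chosen with earlier results of these data known. By rule, the text gives in each role the highest and lowest level, the widest and narrowest limits, the main isoforms and the paralog pairs; other named isoforms, including those whose ends are printed, were chosen after their values were seen, as were the limits of 1000 counts and of 1 and 0.5.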

Additional observations from a re-analysis of the deposited data

How the results depend on the processing

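No paired analysis was possible because the tables hold no values of single libraries; for the same reason leaving out a library, a replicate block and a pseudocount of 1 were not run. With the constant left in or a log-normal mean, the median transcript level was 1205 or 1214 counts. The number of transcripts with a limit under 1 was 77 with at least 100 counts required and 84 with the variance of read assignment subtracted, against 81. Lengths shortened by 200 bases gave a median of 1024 counts per kb against 951 and moved 16 of the 39 genes beyond their SD; the filter and protein-coding transcripts only left that median at 951. Of the 20 upstream shares, 9 moved beyond their SD when taken per kb. With ends more than 500 bases apart, an alternative chosen after seeing the data, 18 genes had an upstream end. These counts and medians stayed within 1.5 times of their main values. What depth would allow is unknown, and small changes in either direction within the limits cannot be seen.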
